A study of Mus musculus with 5 samples.

Results

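The regions described are 1 kb bins of mouse chromosomes 1 to 19 in a capture of methylated DNA released with NaCl. They held a larger share of the reads of the 600 mM eluate than of the 800 mM eluate, and are called bins eluted mostly at 600 mM. How much DNA each salt released is not known here, so the name refers to shares of reads only. The bins were chosen by the read counts of the 2 salt eluates themselves. A bin was taken when its 600 mM value was at least 3 times its 800 mM value and it held at least 30 reads at 600 mM, or when the ratio was at least 2.5 and it held at least 60 reads. Values were reads-per-million values (RPM), scaled to the reads on chromosomes 1 to 19 and X, and 0.5 RPM was added to both before division. This gave 908 bins of the 2297452 bins that held a read in at least 1 library, which is 0.0395%. A ratio of 3 or more was met by 534 of them, beside 2662 bins (0.116%) at any number of reads. Since the eluates made the choice, their ratio in these bins is a description and not a finding, while the 2 antibody libraries and the input were not used to choose them.

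Each of the 5 libraries was a group of its own. The eluates were MethylCap-seq, in which 1 µg of fragmented DNA was bound to 2 µg of a tagged methyl-CpG binding domain (MBD) and released with NaCl. MeDIP and hMeDIP used 2 µg of an antibody to 5-methylcytosine (5mC) or to 5-hydroxymethylcytosine (5hmC) on denatured DNA. These 4 libraries came from clones of a gene-trap collection in E14 embryonic stem cells at passages 11 to 14, while the input was DNA from chromatin of TNG-A, an E14 derivative with a fluorescent reporter at the Nanog locus. All cells were grown without feeders, with leukaemia inhibitory factor and fetal calf serum. The labels do not tell whether the enriched libraries share a clone, and the input differs from them in line and preparation, so these differences cannot be told apart from the antibody or capture. Genomic DNA carries no marker expression by which the cell type could be checked. Reads on chromosomes 1 to 19 and X numbered 10462783 at 600 mM, 7507520 at 800 mM, 10442811 in MeDIP, 18519740 in hMeDIP and 18676265 in input. With 1 library per group no test between groups was possible. Each interval given is an exact 95% interval for a ratio of raw reads. It covers counting error only, since the reads carry no molecular identifiers and need not be independent molecules.

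MBD proteins bind methylated CpG in double-stranded DNA, and in general fragments with more methylated CpG need more salt to be released. 5hmC is made from 5mC by the Tet dioxygenases and is bound poorly by most MBD proteins. The 5mC and 5hmC antibodies bind their base in single-stranded DNA and do not need it to lie in a CpG. Genes and DNA sequence of the bins were not analysed here, so bins are given by position in the mm9 build.

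The bins were dense at 600 mM, and most of them also held signal at 800 mM. The median bin held 94 reads at 600 mM (30 to 726) and 20 at 800 mM (1 to 180), beside medians of 2 and 1 over all bins with a read. It held 14 MeDIP, 23 hMeDIP and 6 input reads, where all bins had medians of 3, 4 and 7. At 3-fold or more over input, again with 0.5 RPM added, were 896 of the 908 bins at 600 mM (98.7%, beside 3.52% of all bins) and 600 at 800 mM (66.1%, beside 4.52%). At 800 mM the summed reads of the 908 bins were still 9.21-fold over input (8.96 to 9.48). At 600 mM they were 31.4-fold over input (30.6 to 32.2). Only 32 bins held 3 or fewer reads at 800 mM.

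**Figure D1:**
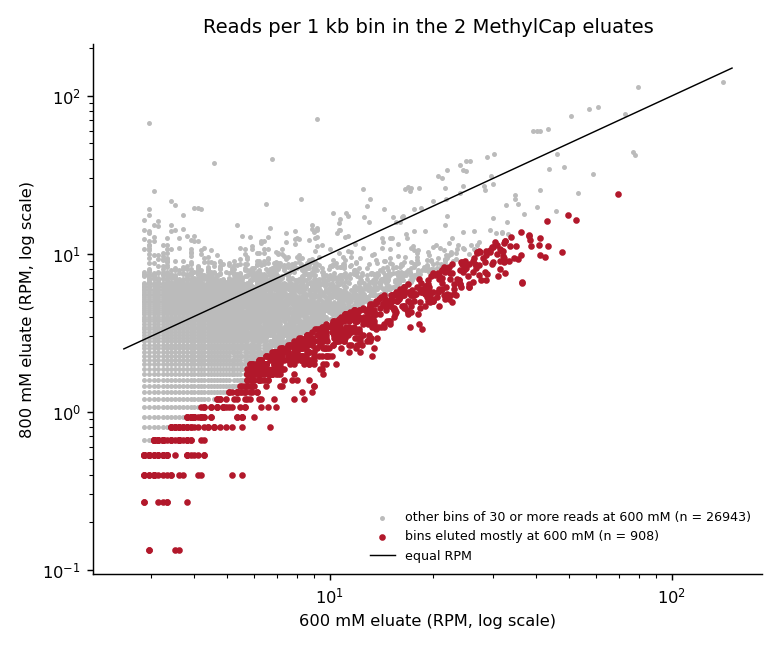
RPM at 600 mM (x axis, log scale) against RPM at 800 mM (y axis, log scale) in 1 kb bins with at least 30 reads at 600 mM. Red points are the 908 chosen bins, grey points the 26943 others, and the line marks equal RPM; the red points span 30 to 726 reads at 600 mM and 1 to 180 at 800 mM, and lie below the line by the rule.

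The share of bins that met the rule grew with the number of 600 mM reads, and it was largest in the densest bins. Of the bins with 30 to 44 reads, 143 met it (0.682%), of those with 45 to 59 reads 62 (1.69%), and of those with 60 to 99 reads 276 (12.9%). Of the bins with 100 to 199 reads 286 met it (34.1%), and of those with 200 or more 141 (57.8%). The median 600/800 ratio of all bins in these classes rose from 1.08 over 1.25, 1.62 and 2.23 to 2.62. Because the rule itself uses these reads and asks less of bins with 60 or more, nothing further is read from this rise.

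Counting error left most of the 600/800 ratios loosely set. The median ratio with the added 0.5 RPM was 3.09, and the highest was 6.72. The exact interval of the raw ratio lay above 1 in all 908 bins, above 2 in 575, above 2.5 in 189 and above 3 in 46, and the lowest lower end was 1.64. These intervals use the reads that chose the bins and make no allowance for the choice. The minima of the rule alone keep every interval above 1, so these counts are a description. Over all bins with a read, 1173 (0.0511%) had an interval above 2. The ratio was also taken from reads that had not chosen the bins, by applying the rule to 1 strand with minima of 15 and 30 reads and reading the other strand. The 1617 bins chosen on the + strand were 3.75-fold higher at 600 mM on that strand (3.68 to 3.82) and 2.53-fold on the other (2.49 to 2.58). The 1554 bins chosen on the - strand gave 3.67-fold (3.60 to 3.73) and 2.54-fold. Of these bins 661 and 643 were among the 908, so most of them were other bins, and the values do not describe the 908 alone. The 600 mM excess was smaller on the strand that had not chosen the bins. Both strands come from the same 2 libraries, so the split shows no repeat between libraries.

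Bins just inside and just outside the rule differed by a few reads. Just inside a ratio of 3 lay a bin on chromosome 12 at 77844001–77845000 with 44 reads from 600 mM against 8 from 800 mM (3.01). Just outside lay a bin on chromosome 3 at 78870001–78871000 with 48 and 9 (2.99). At the ratio of 2.5 the bin at 95570001–95571000 of chromosome 9 was inside with 95 and 25 reads, and that at 75401001–75402000 of chromosome 1 outside with 74 and 19. At the minimum of 30 reads, chromosome 1 held a bin inside at 122154001–122155000 (30 and 2 reads) and one outside at 34760001–34761000 (29 and 2). At the minimum of 60 reads the bin at 123066001–123067000 of chromosome 9 was inside (60 and 12 reads), and that at 41751001–41752000 of chromosome 10 outside (59 and 12).

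Both antibodies, which the rule did not use, were above input over these bins, but unevenly from bin to bin. Summed MeDIP reads were 5.71-fold over input (5.55 to 5.88). Summed hMeDIP reads were 4.32-fold over input (4.21 to 4.45). The median bin was lower with both antibodies (MeDIP 2.36-fold, hMeDIP 2.06-fold), beside 0.898-fold and 0.881-fold over all bins. The interquartile range ran from 1.37-fold to 4.07-fold in MeDIP and from 1.20-fold to 3.37-fold in hMeDIP, so a typical bin had a moderate antibody signal and a minority a strong one. With the 5mC antibody 350 bins reached 3-fold over input (38.5%, beside 2.64% of all bins), and with the 5hmC antibody 275 (30.3%, beside 2.04%). The interval of the raw MeDIP ratio lay above input in 577 bins (63.5%, beside 10.6% of all bins and 81.4% of the other bins with 30 or more reads at 600 mM) and below it in 10 (1.10%, beside 10.3% and 0.330%). That of hMeDIP lay above input in 542 (59.7%, beside 12% and 65.9%) and below it in 16 (1.76%, beside 16.6% and 0.661%). Input was thin, with under 5 reads in 347 of the bins (38.2%, beside 23.7% of all bins). In the 561 bins with 5 or more input reads, the 5mC antibody summed to 4.34-fold (4.20 to 4.48) and the 5hmC antibody to 3.50-fold. The number of bins at 3-fold or more also rested on the added constant, with 814 and 705 (of 1373 bins) at 0.1 RPM and 151 and 91 (of 592 bins) at 1 RPM. The shares of all bins at 0.1 and 1 RPM are not given, so these counts have no background beside them.

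Other bins with 30 or more reads at 600 mM, 26943 in number, gave much the same antibody sums. Their sums over input were 5.82-fold for MeDIP (5.79 to 5.85) and 4.03-fold for hMeDIP (4.01 to 4.05), but their median 600 mM count was only 36. Of them 48.0% reached 3-fold in MeDIP and 27.1% in hMeDIP. Compared directly, hMeDIP over MeDIP was 0.757-fold in the bins eluted mostly at 600 mM (0.743 to 0.771) and 0.692-fold in the other dense bins (0.690 to 0.694), intervals that do not overlap in counting error. The 2558 bins (0.111%) that met the same rule turned round, with the excess at 800 mM, had lower antibody folds over input than both. There MeDIP was 1.22-fold (1.20 to 1.25) and hMeDIP 1.42-fold (1.40 to 1.45) over input, 4.22% of bins reached 3-fold with the 5mC antibody and as many with the 5hmC antibody, and hMeDIP over MeDIP was 1.16-fold (1.14 to 1.18).

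At a like number of 600 mM reads, the median chosen bin carried less 5mC antibody signal than the median other bin, except in the densest class. No test of these differences between bins was possible, since each antibody was 1 library. The classes are alike in 600 mM reads only, since the rule picks bins low at 800 mM. Median 800 mM reads of chosen and other bins were 5 and 23 at 30 to 44 reads, and 16 and 33 at 60 to 99. They were 29 and 46 at 100 to 199 reads, and 59 and 103 at 200 or more. The chosen bins thus held less capture signal by construction, and no trait at equal capture is read from the antibody values. With 30 to 44 reads at 600 mM, the median MeDIP fold was 1.40 in the chosen bins and 2.76 in the others, and 22.4% and 43.9% reached 3-fold. With 60 to 99 reads the medians were 1.90 and 3.87, and with 100 to 199 reads 2.83 and 4.13. In bins with 200 or more reads the medians were 4.72 in the 141 chosen and 4.34 in the 103 others. hMeDIP moved in the same way, with medians of 1.29 and 1.98 at 30 to 44 reads, 2.05 and 2.78 at 60 to 99 reads, and 2.88 and 2.10 at 200 or more. The ratio of the antibodies over the chosen bins fell from 0.947 (0.893 to 1.00) at 30 to 44 reads and 0.924 (0.891 to 0.959) at 60 to 99 to 0.517 (0.499 to 0.537) at 200 or more. In the others it lay between 0.682 and 0.699 in the first 4 classes and was 0.484 (0.471 to 0.497) in the last. In the densest bins of either kind the ratio was thus at its lowest. Median input differed by at most 1 read between chosen and other bins of a class.

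**Figure D2:**
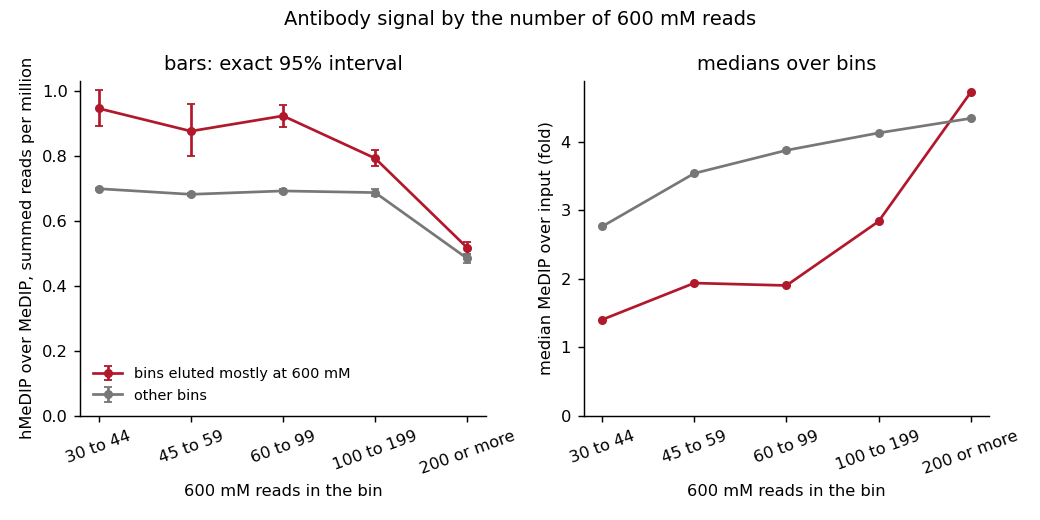
Antibody signal by the number of 600 mM reads in the bin (x axis). Left, hMeDIP over MeDIP from summed RPM with exact 95% intervals; right, the median MeDIP fold over input; red, bins eluted mostly at 600 mM, and grey, other bins of the same read class. Red lies above grey on the left and below it on the right up to 199 reads, with 0.517 against 0.484 and 4.72 against 4.34 at 200 or more.

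Sorted by whether each antibody reached 3-fold over input, the bins fell into 4 kinds. Neither antibody reached it in 450 bins (49.6%, beside 96.2% of all bins). The 5mC antibody alone did in 183 (20.2%, beside 1.72%), the 5hmC antibody alone in 108 (11.9%, beside 1.12%), and both did in 167 (18.4%, beside 0.915%). The same shares in the other dense bins were 43.9%, 29.0%, 8.06% and 19.1%. Bins with neither antibody had the fewest 600 mM reads, with a median of 72.5, while the medians in the other kinds were 122, 110 and 124. In these 450 bins both antibodies were still above input in sum, with MeDIP at 1.88-fold (1.80 to 1.97) and hMeDIP at 1.88-fold (1.81 to 1.96). In 47 bins (5.18%) both antibodies lay below input, beside 48.6% of all bins and 1.14% of the other dense ones. The median 600/800 ratio differed little between the kinds, at 3.22 with neither antibody and 2.99, 3.04 and 2.95 in the others, against a floor that the rule sets at 2.5.

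**Figure D3:**
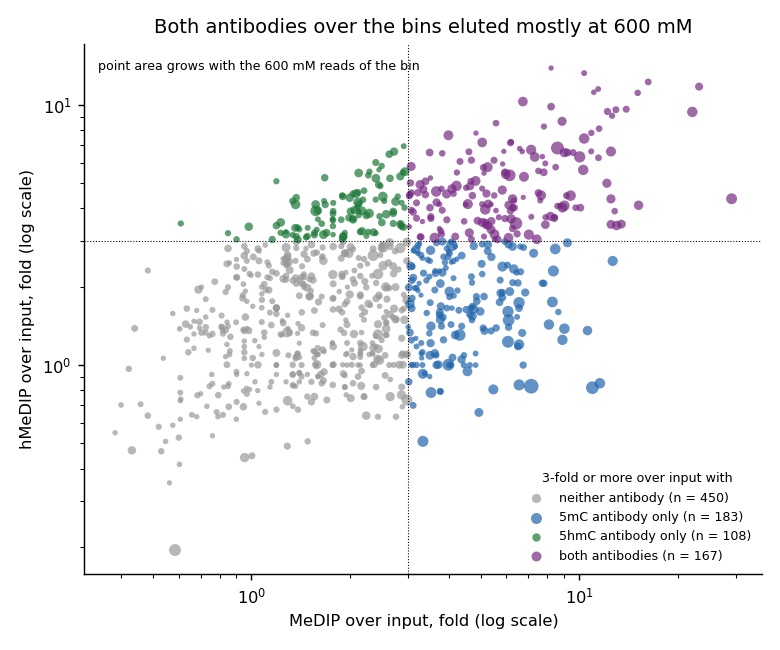
MeDIP over input (x axis, log scale) against hMeDIP over input (y axis, log scale), each with 0.5 RPM added, in the 908 bins; dotted lines mark 3-fold and point area grows with the 600 mM reads. The 450 grey bins lie under both lines, 183 blue bins pass it with the 5mC antibody alone, 108 green bins with the 5hmC antibody alone and 167 purple bins with both.

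Of the 10 bins with the most 600 mM reads, 9 reached 3-fold over input with the 5mC antibody, against 38.5% of the 908. With the 5hmC antibody 3 did, a share near the 30.3% of the 908. The densest lay on chromosome 10 at 12810001–12811000. Its counts were 726 at 600 mM, 180 at 800 mM, 64 in MeDIP, 5 in hMeDIP and 8 in input. Its raw 600/800 ratio was 2.89 (2.46 to 3.43), and its raw hMeDIP ratio to input had an interval of 0.162 to 2.19. The bin on chromosome 15 at 72640001–72641000 was of the same kind, with 521, 132, 95, 4 and 7 reads in that order of libraries. Both were well above input with the 5mC antibody (7.14-fold and 11.0-fold), and with the 5hmC antibody their intervals held the input level.

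Others in this top group followed the same pattern at higher 600/800 ratios. Chromosome 6 had one at 4697001–4698000 with 447 reads from 600 mM, 72 from 800 mM, 29 from MeDIP, 6 from hMeDIP and 6 from input (raw 600/800 ratio 4.45, 3.47 to 5.80). Chromosome 11 had one at 11925001–11926000 with 428, 86, 27, 8 and 4 reads. By contrast, 3 bins had signal with both antibodies. The bin on chromosome 17 at 23956001–23957000 held 550, 123, 102, 142 and 13 reads, that on chromosome 14 at 68742001–68743000 held 498, 77, 57, 51 and 8, and that on chromosome 19 at 24205001–24206000 held 430, 94, 44, 67 and 5. High density at 600 mM was found both with and without 5hmC antibody signal.

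A bin on chromosome 17 at 39980001–39981000 was dense in every library. Its reads were 451 at 600 mM, 121 at 800 mM, 107 in MeDIP, 57 in hMeDIP and 334 in input, so that MeDIP was 0.585-fold and hMeDIP 0.195-fold of input. Of the 908 bins, 6 held 30 or more input reads (31 to 334), and none of these 6 reached 3-fold with either antibody. Input is the denominator of the fold, so high input itself lowers it. Fewer than 30 input reads were held by 902 of the 908 bins and by 26792 of the 26943 other dense ones. In the 902, MeDIP summed to 6.37-fold over input (6.18 to 6.56), and hMeDIP to 4.83-fold (4.69 to 4.98). In the 26792 these sums were 6.38-fold and 4.43-fold. Copy number in the lines was not measured.

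The 10 bins with the highest 600/800 ratio were a different set, mostly with few reads. In 9 of them there were 31 to 88 reads at 600 mM and 1 to 9 at 800 mM. The first, on chromosome 19 at 13194001–13195000, had 58 reads at 600 mM, 3 at 800 mM, 2 in MeDIP, 1 in hMeDIP and none in input, with a raw ratio of 13.9 (4.52 to 69.2). The second, on chromosome 3 at 98625001–98626000, held 38, 1, 2, 16 and 1 reads. With 1 read at 800 mM its raw ratio of 27.3 has an interval from 4.61 to 1105, so 1 read sets its rank. The exception, at 22872001–22873000 of chromosome 11, had 382 reads at 600 mM, 49 at 800 mM, 62 in MeDIP, 6 in hMeDIP and 9 in input. Its raw ratio of 5.59 (4.15 to 7.69) rests on the most reads of the 10, and it was the only one of them at 3-fold or more in MeDIP (6.56-fold), while none of the 10 reached 3-fold in hMeDIP. The 10 held 0 to 9 input reads, where the added 0.5 RPM lowers high folds. On chromosome 13 at 67993001–67994000, with 10 MeDIP and 0 input reads, MeDIP was 2.92-fold, but its raw interval began at 4.01. On chromosome 9 at 72951001–72952000, with 17 hMeDIP reads and 1 input read, hMeDIP was 2.56-fold and its raw interval began at 2.69. Of the 10, 8 were below 2-fold in MeDIP and 7 in hMeDIP.

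In 16 bins (1.76%, beside 0.0575% of all bins and 0.898% of the other dense ones) the 5mC antibody was at 3-fold or more and the 5hmC antibody below input. By 600 mM reads, they were 1 of 143 chosen bins with 30 to 44 reads (184 of 20813 others), 0 of 62 with 45 to 59 (29 of 3612) and 2 of 276 with 60 to 99 (23 of 1863). They were 3 of 286 with 100 to 199 reads (5 of 552 others) and 10 of 141 with 200 or more (1 of 103). The chosen bins thus had the higher share at 200 or more reads. At 100 to 199 reads the shares were close, and in the first 3 classes that of the chosen bins was not higher. Besides the bins on chromosomes 10, 11 and 15 named above at 12810001, 22872001 and 72640001, one at 134755001–134756000 of chromosome 7 had 341 reads from 600 mM, 90 from 800 mM, 81 from MeDIP, 2 from hMeDIP and 4 from input. Another, at 58856001–58857000 of chromosome 6, had 222, 45, 51, 4 and 11. Below input here means the ratio with 0.5 RPM added, and it rests on few hMeDIP reads. The raw hMeDIP interval held the input level at 12810001, 72640001, 22872001 (0.197 to 2.11) and 58856001 (0.0852 to 1.24). At 13132001–13133000 of chromosome 18, with 0 hMeDIP and 9 input reads, it ended at 0.511. The antibody ratios chose the 16, so all these values are a description. Over all 908 bins, the raw hMeDIP to MeDIP ratio had an interval below 1 in 307 (33.8%, beside 5.68% of all bins and 40.6% of the other dense ones) and above 1 in 173 (19.1%, beside 5.28% and 9.36%). With 0.5 RPM added, 94 bins were at least 3-fold higher in MeDIP than in hMeDIP (10.4%, beside 0.429% of all bins and 7.23% of the other dense ones), and 13 were at least 3-fold higher in hMeDIP (1.43%, beside 0.509% and 0.865%).

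At the other end, some bins carried 5hmC antibody signal with hardly any 5mC antibody reads. The largest excess of hMeDIP over MeDIP, among bins with 5 or more input reads, was on chromosome 11 at 103891001–103892000, with 73 reads at 600 mM, 17 at 800 mM, none in MeDIP, 44 in hMeDIP and 6 in input. The next were at 135271001–135272000 of chromosome 3 with 68, 15, 0, 35 and 10 reads, and at 116821001–116822000 of chromosome 4 with 73, 16, 3, 46 and 8. All 5 bins with the largest such excess held 68 to 141 reads at 600 mM and had MeDIP at 0.483-fold to 0.901-fold of input, which the ranking by this ratio favours. In 4 of the 5 the interval of the raw MeDIP ratio held the input level, and in the bin on chromosome 3 it ended at 0.798.

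The 5 bins with the strongest 5mC antibody signal also held 5hmC antibody signal. They were ranked among bins with 5 or more input reads, as were those at the low end. In the 5 bins with the highest MeDIP ratio, MeDIP was 12.9-fold to 29.2-fold over input, and hMeDIP 4.36-fold to 12.3-fold. The first, on chromosome 5 at 148019001–148020000, had 366 reads from 600 mM, 84 from 800 mM, 294 in MeDIP, 70 in hMeDIP and 9 in input. The bin with the highest hMeDIP ratio among those with 5 or more input reads lay on chromosome 1 at 138647001–138648000 and held 100, 24, 125, 165 and 5 reads. It was also the third in MeDIP, and all 5 bins highest in hMeDIP reached 3-fold in MeDIP. Below the 5 bins highest in MeDIP this did not always hold. The bin at 72640001–72641000 of chromosome 15 had MeDIP at 11.0-fold and hMeDIP at 0.818-fold.

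At the low end, 5 bins had MeDIP at 0.384-fold to 0.440-fold of input. With 0.5 RPM added, a low fold needs many input reads, so this ranking favours bins high in input. These 5 held 14 to 62 input reads, beside a median of 6 in the chosen bins. The lowest, on chromosome 1 at 172702001–172703000, had 37 reads at 600 mM, 6 at 800 mM, none in MeDIP, 4 in hMeDIP and 15 in input, and its raw MeDIP ratio was at most 0.499 by its interval. Another, at 72704001–72705000 of chromosome 9, had 108, 26, 2, 31 and 20 reads. In the 5 bins lowest in hMeDIP, with 16 to 334 input reads, that antibody was at 0.195-fold to 0.448-fold. One lay on chromosome 2 at 165633001–165634000 with 109, 15, 9, 2 and 16 reads. In all, 13 bins held no MeDIP read and 32 no hMeDIP read, and 2 held neither. The shares of bins without reads among all bins and among the other dense ones are not given here. At the low end the chosen bins held fewer antibody reads than the other dense ones. The 10th percentile was 3 MeDIP and 2 hMeDIP reads in the chosen bins, 0 and 1 over all bins, and 8 and 7 in the other dense ones.

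The 600/800 ratio of the surrounding bins was lower. All 1774 bins directly beside a chosen one, 100 of them chosen themselves, were 1.70-fold higher at 600 mM (1.67 to 1.72). The 1674 that did not meet the rule were 1.34-fold higher (1.31 to 1.36), and leaving out those that met it lowers this value by construction. At 2 kb away it was 1.04-fold (1.02 to 1.06), at 3 kb 1.01-fold (0.988 to 1.03), at 5 kb 1.02-fold (0.997 to 1.05) and at 10 kb 0.961-fold (0.938 to 0.984), again without bins that met the rule. With those kept it was 1.13-fold (1.11 to 1.16) at 2 kb, 1.08-fold at 3 kb and 1.05-fold at 5 kb. The capture signal itself reached further than the excess. At 10 kb both eluates were still 1.92-fold (1.88 to 1.96) and 2.00-fold (1.95 to 2.05) over input, with MeDIP and hMeDIP at 1.55-fold each. Next to a bin with the reverse excess at 800 mM lay 5 of the 908 bins (0.551%, beside 0.217% of all bins and 0.779% of the other dense ones). Within 10 kb of one lay 34 (3.74%, beside 1.77% and 4.87%).

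**Figure D4:**
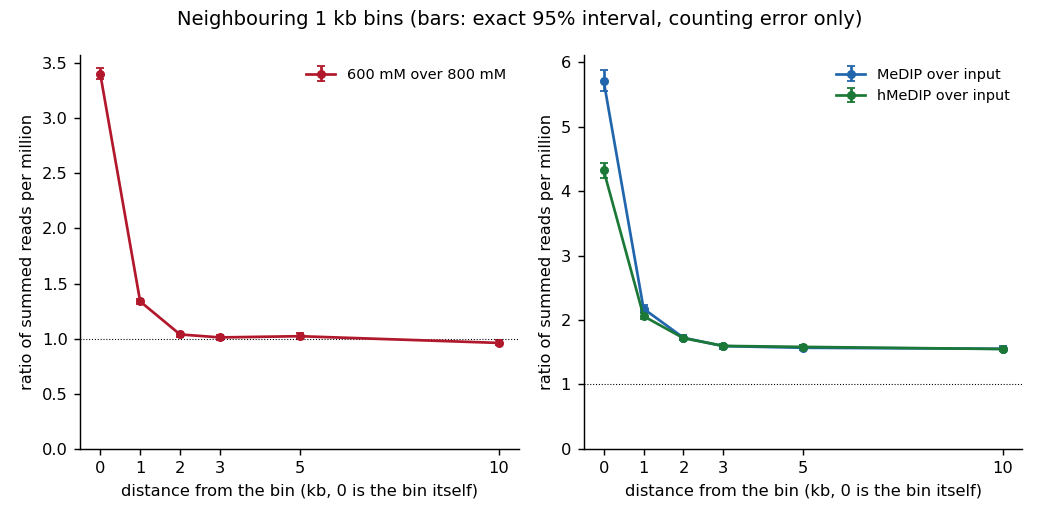
Ratios of summed RPM (y axes) in the chosen bins (0) and in unchosen bins 1, 2, 3, 5 and 10 kb to either side (x axis, kb), with exact 95% intervals. Left, 600 mM over 800 mM falls from 3.40 to 1.34 in the next bin and to 1.04 at 2 kb; right, MeDIP and hMeDIP over input fall from 5.71 and 4.32 to 1.55 at 10 kb.

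The neighbours of each kind resembled their bin in the antibodies. Beside bins with the 5mC antibody alone, the sums over input were 3.10 for MeDIP (2.95 to 3.27) and 1.99 for hMeDIP (1.89 to 2.09). Beside bins with the 5hmC antibody alone they were 2.22 (2.08 to 2.38) and 3.20 (3.02 to 3.39). Beside bins with neither, MeDIP was lower at 1.46 (1.41 to 1.51), and hMeDIP was close to it. By 10 kb the antibodies lay close together in each kind, for example at 1.61-fold and 1.47-fold near bins with the 5mC antibody alone and at 1.92-fold and 2.00-fold near those with the 5hmC antibody alone. Among neighbours that did not meet the rule, the 600 mM excess was largest beside bins with neither antibody (1.44-fold, 1.40 to 1.48) and smallest beside bins with the 5hmC antibody alone (1.15-fold, 1.09 to 1.21), with 1.32-fold and 1.28-fold beside the other kinds.

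Within a bin the reads of the enriched libraries lay close to 1 centre. The interquartile range of the 600 mM read positions spanned 234 bp (median over 908 bins), against 264 bp in the 2518 other bins with 60 or more reads. In bins with 10 or more reads of a library, the centre of the 800 mM reads was 35 bp from that of the 600 mM reads (median over 705 bins), that of MeDIP 69 bp (567 bins), that of hMeDIP 104 bp (666 bins) and that of input 306.5 bp (167 bins). In the 2518 other bins these distances were 47, 75.5, 85.5 and 209.5 bp. In the chosen bins, reads of the - strand were centred 199.5 bp beyond those of the + strand at 600 mM, 167.5 bp at 800 mM, and 98 and 96 bp in MeDIP and hMeDIP. Within 200 bp of the 600 mM centre the read density was 22.5 RPM per kb at 600 mM, 6.02 at 800 mM, 3.43 in MeDIP and 2.28 in hMeDIP. Set against the stretch from 1 to 2 kb away, this was 17.8-fold, 5.72-fold, 4.48-fold (4.38 to 4.59) and 3.08-fold (3.02 to 3.15). In the 2518 other bins these were 8.11-fold, 4.72-fold, 4.29-fold (4.25 to 4.34) and 3.23-fold (3.20 to 3.26). The antibody peaks were thus of like height in both. Input in the chosen bins was lower at the centre than in that stretch, at 0.736-fold (0.703 to 0.771), beside 1.23-fold in the other bins.

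The height of the antibody peaks is given by kind of bin as a description, since each antibody's own reads in the bin sorted the kinds. With the 5mC antibody alone, MeDIP was 6.06-fold and hMeDIP 2.19-fold higher at the centre than 1 to 2 kb away. With the 5hmC antibody alone, hMeDIP was 3.43-fold and MeDIP 1.81-fold higher, and with both they were 5.40-fold and 7.52-fold. Bins with neither antibody at 3-fold still had a small peak, with MeDIP up 2.48-fold (2.37 to 2.60) and hMeDIP up 1.89-fold (1.82 to 1.96). Input dipped more in the kinds chosen by a high ratio to input (0.543-fold to 0.623-fold) than in the bins with neither (0.866-fold); input is the denominator by which these kinds were sorted.

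**Figure D5:**
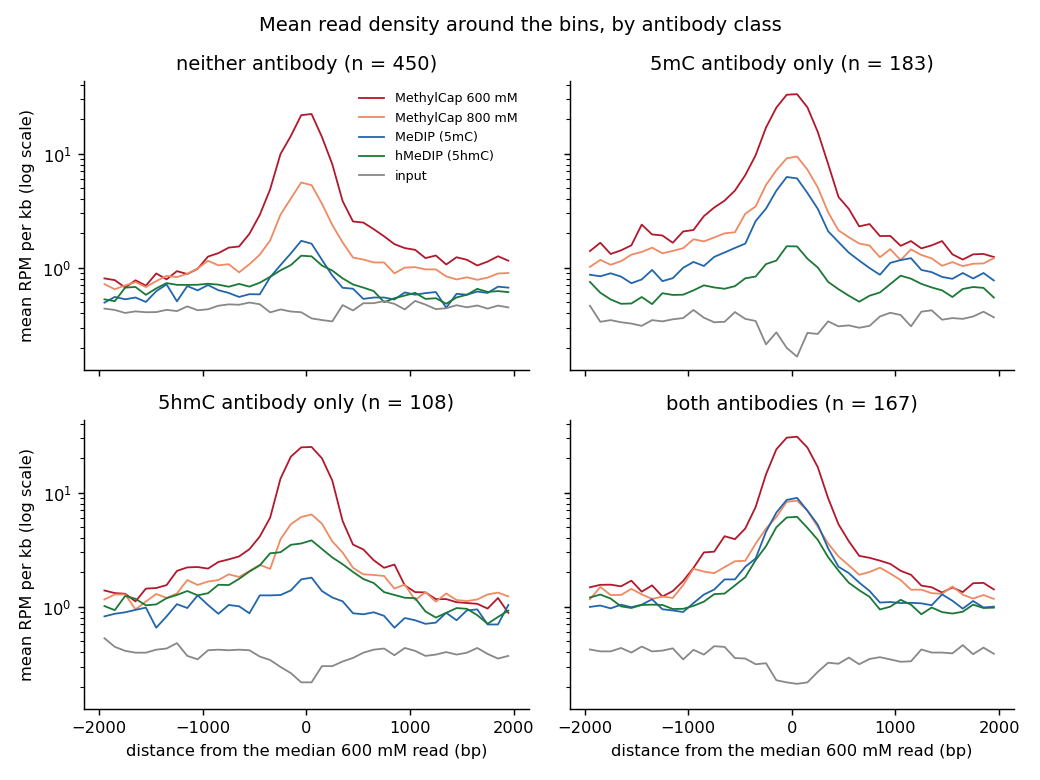
Mean read density (y axis, RPM per kb, log scale) in 100 bp steps up to 2 kb from the median 600 mM read of each bin (x axis, bp), by antibody kind, for the 5 libraries. The 600 mM and 800 mM peaks share their centre in all 4 panels; MeDIP rises 6.06-fold in bins with the 5mC antibody alone and 1.81-fold in bins with the 5hmC antibody alone, and input dips in each.

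The bins lay scattered over all 19 autosomes. Chromosome 5 held 82 of them (9.03%, beside 6.14% of all bins), while chromosome 16 held 17 (1.87%, beside 4.01%) and chromosome 1 held 42 (4.63%, beside 8.07%). As a share of the bins with 30 or more reads at 600 mM, of which 3.26% were chosen in all, they ranged from 2.01% on chromosome 16 to 4.58% on chromosome 18 (39 bins), so chromosome 5 was not high on that scale (3.05%). The median distance to the next chosen bin was 1163 kb. Of the bins, 6.17% lay within 5 Mb of the first covered bin of a chromosome, beside 3.76% of all bins and 3.19% of the other dense ones, and 5.84% lay within 5 Mb of the last, beside 4.00% and 8.27%.

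Most bins stood alone, and 100 had a chosen neighbour. There were 808 single bins, 46 pairs, 1 run of 3 and 1 run of 5. The run of 5, on chromosome 2 at 174122001–174127000, summed to 1401 reads from 600 mM against 269 from 800 mM (3.74-fold, 3.28 to 4.27), with 159 MeDIP, 40 hMeDIP and 28 input reads. MeDIP was thus 10.2-fold over input (6.77 to 15.8), while the interval of hMeDIP (1.44-fold, 0.867 to 2.42) held the input level. Its 2 densest bins, at 174124001–174125000 and 174125001–174126000, held 454 and 432 reads at 600 mM. The run of 3, on chromosome 2 at 25432001–25435000, held 690 and 121 reads (4.09-fold, 3.37 to 5.01), 17 in MeDIP, 82 in hMeDIP and 10 in input. There hMeDIP was 8.27-fold over input (4.28 to 17.9) and MeDIP 3.04-fold (1.31 to 7.43), so the longest runs leaned to different antibodies.

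The fourth column of the files, whose meaning the sources used here do not give, was 1 for 9.24% of 600 mM reads in these bins (7.88% in the library), 8.65% of 800 mM reads (8.22%) and 10.2% of input reads (8.38%). Second reads at the same position and strand, of which the MethylCap files hold at most 1, made up 2.85% of the 600 mM and 1.49% of the 800 mM reads here. Counting 1 read per position and strand, 865 bins met the rule, among them 841 of the 908.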

How the data were processed

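The deposited files list aligned reads of 35 bp in mm9, 1 per line, for 5 libraries (MethylCap at 600 and 800 mM, MeDIP, hMeDIP, input). Per the submitters' processing notes BWA 0.5.8 was used. Column 5 is a read count, 1 in every line as deposited by the authors; column 4 (0 or 1 as deposited, with no meaning given) was used only in a check. The files hold at most 2 reads per position and strand in MethylCap and 1 in the other libraries, which caps dense signal.

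Reads were put into 1 kb bins by midpoint with Python 3.11.15, numpy 2.4.6, pandas 2.3.3 and scipy 1.17.1, and drawn with matplotlib 3.10.9. Sums use raw ratios of RPM; ratios of single bins have 0.5 RPM added unless called raw. Intervals are Clopper-Pearson on the conditional binomial. The interval and the rule were tried on simulated counts with counting error only, with changed ratios planted only in bins rich in eluate reads. Changed ratios in sparse bins, and spread beyond counting error, were not tried.

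The bins, thresholds and comparisons were chosen with earlier results of these data known. Named bins are the 10 with the most 600 mM reads, the 10 highest in 600/800 ratio, the 5 at each end for each antibody and for their ratio (at least 5 input reads), adjacent bins and those at the thresholds; examples of each are given and pairs are summarised. The 16 bins high in 5mC and below input in 5hmC were singled out after their values were seen. Chromosome Y, mitochondrial and unplaced reads were not analysed here. Gene and sequence tables at hand are of another build and were not used.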

Additional observations from a re-analysis of the deposited data

Results flagged for a closer look

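Chromosome X was outside the bins chosen, and 37 of its 1 kb bins met the same rule, a signal in data that the comparisons above do not use. They were 0.0259% of the 142638 X bins with a read, against 0.0395% on the autosomes. Of the 120 X bins with 30 or more reads at 600 mM they were 30.8%, against 3.26%, so the direction depends on the denominator, and the rule itself uses these reads. Summed over them, 600 mM was 3.94-fold over 800 mM (3.63 to 4.29), MeDIP 4.48-fold over input (3.73 to 5.40) and hMeDIP 3.27-fold (2.74 to 3.91). The median bin held 63 reads at 600 mM, 12 at 800 mM, 6 in MeDIP, 9 in hMeDIP and 3 in input. The densest, at 5659001–5660000, held 455, 74, 25, 17 and 5 reads. The input is from another line, and copy number of X was not measured; its part in these values was not tested.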

How the results depend on the processing

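No paired analysis was possible because each group is 1 library. Of 66 recomputed values 28 stayed within 1.5 times for counts or inside the counting interval for ratios, and 38 moved further. Of the ratios 0 turned direction, while counts have no direction to turn. The causes were not tested. The number of bins was 1373 with 0.1 RPM added, 592 with 1 RPM, 329 with at least 60 reads at ratio 3 and 86 at ratio 4. Bins at 3-fold in MeDIP and in hMeDIP were 814 and 705 with 0.1 RPM, 151 and 91 with 1 RPM, and 191 and 161 with 5 or more input reads. Shares over all bins are not given at these settings. Values of MeDIP over input, hMeDIP over input, hMeDIP over MeDIP and, in the next bin, 600 over 800 mM follow in this order, those within the interval left out. With 500 bp bins they were 8.92, 6.27, 0.703 and 1.63; with 60 reads at ratio 3, 6.05, 4.85, 0.802 and 1.51; as medians over bins, 2.36, 2.06, 0.841 and 1.09. Chosen on the - strand and valued on the +, they were 5.15, 4.17, 0.809 and 1.52. Chosen on the + strand, the last 2 were 0.779 and 1.49. The first 2 were 5.92 and 4.50 with bins shifted by 500 bp, 6.17 and 4.71 with column 4 at 0, 5.91 and 4.48 with reads moved 100 bp along their strand (next bin 1.23), and 4.34 and 3.50 with 5 or more input reads. With neighbours that met the rule kept, chosen after the data were seen, the next bin was at 1.70. Shifting by 500 bp gave 903 bins, which overlapped 631 of the 908. For the 43 named bins, 7 of these settings, applied to single bins after the data were seen, gave 600/800 ratios of 2.04 to 16.0, in bins chosen for a high ratio. In 5 cases the ratio left its counting interval, as on chromosome 3 at 98625001–98626000, from 6.53 to 4.09 with 1 RPM and to 2.53 with reads moved 100 bp. A bin of 30 reads at 600 mM can meet the rule only with few reads at 800 mM, so depth limits which sparse bins are found.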
